A study of Rattus norvegicus with 19 samples.

Results

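The vitamin D receptor and 5 genes around it were followed in hypertrophied rat hearts treated with paricalcitol, a synthetic vitamin D analogue that activates this receptor. The 6 genes were chosen by symbol: the receptor gene Vdr, its dimer partner Rxra, the activating enzyme gene Cyp27b1, and the target genes Cdkn1a, Igfbp3 and Thbd. They are 6 of the 14217 genes measured and are covered by 10 probe sets (groups of short array probes that read 1 transcript). Vdr, Rxra and Cyp27b1 have 1 probe set each, Cdkn1a and Igfbp3 have 2 each, and Thbd has 3.

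All rats were male Dahl salt-sensitive animals of the Harlan SS/Hsd stock, a strain in which a high-salt diet raises blood pressure and thickens the left ventricle. From 6 weeks of age every group ate 6% NaCl chow, and left ventricle RNA was read on 19 arrays. The paricalcitol group (4 arrays) received 200 ng by intraperitoneal injection 3 times a week for 4 weeks, after 5 weeks on salt. The combination group (4 arrays) received the same paricalcitol and also 90 ug of enalapril per day, an inhibitor of angiotensin-converting enzyme given by osmotic pump. The enalapril group (3 arrays) received that pump dose with vehicle injections, and the vehicle group (4 arrays) received vehicle injections alone, in propylene glycol and ethyl alcohol. These 4 groups were 15 weeks old at sampling. The baseline group (4 arrays) was sampled at 11 weeks of age, at the end of the first 5 weeks on salt and with no injections. The enalapril dose was picked as one that left blood pressure without a significant fall. No rat on normal chow is included here. Vehicle and baseline differ in age, in weeks on salt and in injections, which cannot be told apart. Each treated group differs from baseline in these and also in its drug. No pump is described for the vehicle and paricalcitol groups, so enalapril and its pump cannot be told apart.

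In textbook terms, vitamin D is activated by a hydroxylase, encoded by Cyp27b1, and the active hormone binds the receptor encoded by Vdr. The bound receptor pairs with a retinoid X receptor and sits on paired short DNA half-sites near its target genes. In the heart, agonists of the receptor are known for opposing hypertrophic growth. The receptor's known targets include genes that stop cell division, bind insulin-like growth factor or restrain clotting on vessel walls, which is where Cdkn1a, Igfbp3 and Thbd belong.

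The values are array intensities made comparable between arrays by quantile normalization and given as log2(intensity + 16), here called the log2 level. On this scale 4 is the floor, at an intensity of 0 or below, and differences of dim genes are understated. Before normalization the median intensity of an array was 43.6 to 72.6, and 15.97% to 18.16% of its values were below 0. All 9 measured cardiomyocyte markers exceeded the median gene on every array, the lowest at 11.36. In this bulk tissue, fewer cells of a type and less RNA per cell cannot be told apart. Levels are compared between groups and not between genes, because probe sets differ in sensitivity. Nothing in the labels says that 2 arrays share a rat, and the p-values measure the spread between these samples.

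The promoter windows of the receptor gene and of a pair of its targets are shown because paricalcitol acts through receptor half-sites in DNA. Each runs from 250 bases before to 50 bases after the start of the gene in RefSeq, rat build GRCr8. The windows are chr7:130916708-130917007 on the minus strand for Vdr, chr20:7150682-7150981 on the plus strand for Cdkn1a and chr14:86277895-86278194 on the minus strand for Igfbp3. Capitals mark receptor half-sites of 6 bases, searched on both strands as AGGTCA, then AGGTGA, then AGTTCA, then AGTTGA, then GGGTCA, then GGGTGA, then GGTTCA, then GGTTGA.
Vdr: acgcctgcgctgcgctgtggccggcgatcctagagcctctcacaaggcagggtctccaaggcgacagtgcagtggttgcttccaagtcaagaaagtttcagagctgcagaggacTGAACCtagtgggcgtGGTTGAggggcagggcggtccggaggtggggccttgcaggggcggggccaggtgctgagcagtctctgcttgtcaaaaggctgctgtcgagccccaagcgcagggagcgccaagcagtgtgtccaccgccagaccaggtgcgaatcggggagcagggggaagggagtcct
Cdkn1a: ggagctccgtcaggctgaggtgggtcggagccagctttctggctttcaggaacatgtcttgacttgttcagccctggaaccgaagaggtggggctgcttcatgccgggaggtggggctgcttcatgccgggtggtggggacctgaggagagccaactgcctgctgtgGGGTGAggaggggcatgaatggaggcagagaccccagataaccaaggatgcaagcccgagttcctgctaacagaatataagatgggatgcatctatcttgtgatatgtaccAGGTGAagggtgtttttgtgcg
Igfbp3: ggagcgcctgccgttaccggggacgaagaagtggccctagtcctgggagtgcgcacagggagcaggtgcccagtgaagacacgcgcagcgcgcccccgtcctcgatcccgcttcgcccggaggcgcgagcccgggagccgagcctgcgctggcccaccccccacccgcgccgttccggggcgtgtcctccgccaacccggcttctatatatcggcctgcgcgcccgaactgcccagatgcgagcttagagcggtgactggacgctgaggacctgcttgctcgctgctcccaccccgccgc

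The Cdkn1a window held GGGTGA at position -83 from the start and AGGTGA at position 29, both on the strand of the gene. Vdr had 2 half-sites and Igfbp3 had 0. Of the windows not shown, Cyp27b1 had 3 and Rxra had 0, and Thbd was not searched here. None of the 5 members' windows held 2 half-sites as a direct repeat with 3 bases between, the layout the receptor pair is known to prefer. At least 1 half-site occurred in 66.7% of 33469 rat windows and the direct repeat in 0.35%. A match describes letters in this window and no binding was measured.

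No member differed with paricalcitol at an adjusted p under 0.05, and Thbd was the 1 member that differed between any groups at that threshold. Of all genes, 0.0141% passed for paricalcitol against vehicle, 0.00703% for the combination against vehicle and 0.0% for the combination against enalapril, the combination against paricalcitol, enalapril against vehicle, the average and the interaction. Thbd encodes thrombomodulin, the endothelial protein that turns thrombin towards activating protein C. Its level was lower in vehicle hearts, at 9.46 ± 0.14, against 9.95 ± 0.09 at baseline (log2 level, mean ± SD, n = 4 each). It was also lower in enalapril hearts than at that baseline, at 9.40 ± 0.11 (SD, n = 3). These differences passed, as did 0.0844% of all genes for vehicle against baseline and 0.0141% for enalapril against baseline. Both calls rest on the brightest of 3 probe sets and are lost when most single arrays are left out. On that probe set the Thbd level with paricalcitol lay between, at 9.59 ± 0.07 in the paricalcitol group and 9.62 ± 0.12 in the combination group (SD, n = 4 each).

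**Figure D1:**
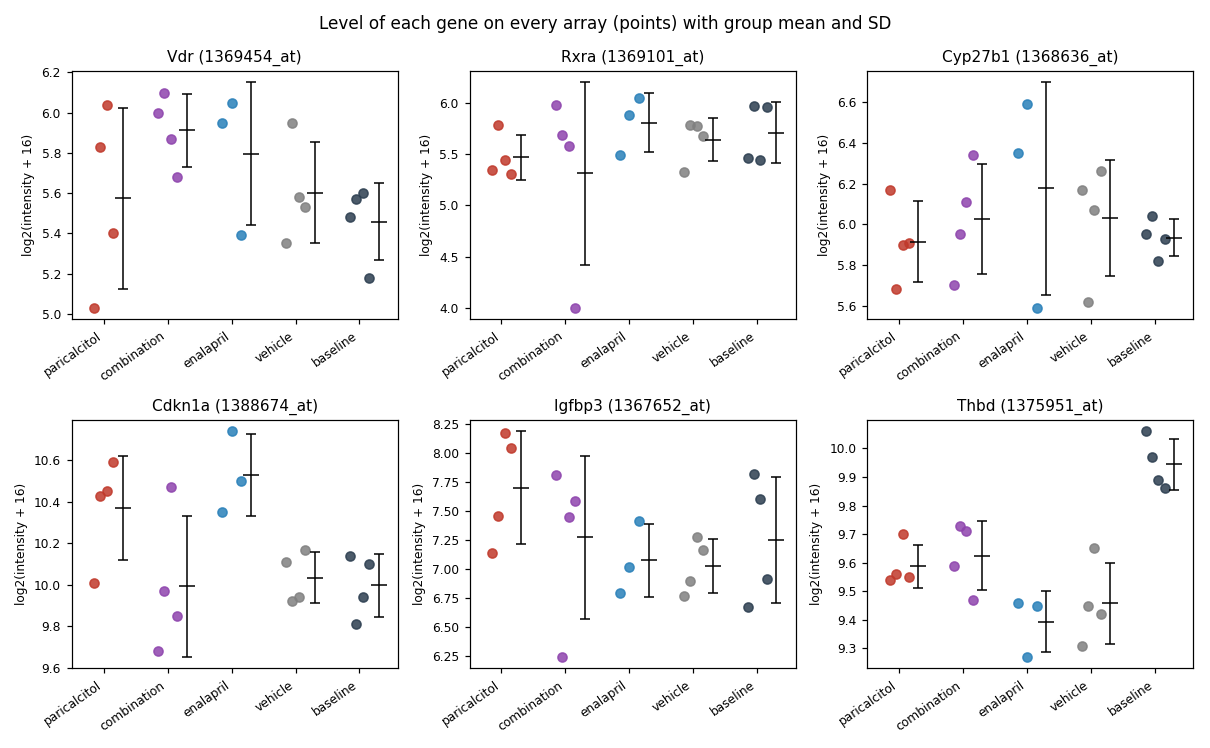
Log2 level of each gene on every array, 1 panel per gene with its brighter or only probe set, groups from paricalcitol at the left to baseline at the right, points for arrays and bars for group mean and SD. The 4 baseline points of Thbd (9.86 to 10.06) lie above all 15 others, and 1 combination array of Rxra lies at the floor of 4.

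Vdr encodes the receptor that paricalcitol activates. Its log2 levels were 5.03, 5.83, 6.04 and 5.40 in the paricalcitol group and 6.00, 6.10, 5.87 and 5.68 in the combination group. They were 5.95, 6.05 and 5.39 in the enalapril group, 5.35, 5.95, 5.58 and 5.53 in the vehicle group, and 5.48, 5.57, 5.60 and 5.18 at baseline. These values overlapped between most groups, and 1 paricalcitol array was the lowest of all 19. The gene was dim, with a deposited intensity of 14 to 54 and a mean level below 7.07, the median over all genes. Paricalcitol against vehicle differed by -0.03 (SE 0.21, 95% interval -0.47 to 0.41, adjusted p = 1). Averaged over both enalapril levels the paricalcitol difference was 0.04 (SE 0.15, 95% interval -0.28 to 0.37, adjusted p = 1). Its sign turned to -0.03 without paricalcitol replicate 3 and to -0.06 without enalapril replicate 3. In the combination the mean was 5.91 ± 0.18, against 5.46 ± 0.19 at baseline (SD, n = 4 each), and these 2 groups did not overlap. That difference of 0.46 (SE 0.21) had an unadjusted p = 0.0435 and an adjusted p = 0.462 in limma. The groups were apart in 5.58% of all genes in that comparison, and in 2 of the 6 members.

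Rxra encodes retinoid X receptor alpha, the partner with which the vitamin D receptor binds DNA. It had 5.34, 5.78, 5.44 and 5.31 in the paricalcitol group and 5.98, 5.69, 5.58 and 4.00 in the combination group. The enalapril group had 5.49, 5.88 and 6.05, the vehicle group 5.33, 5.78, 5.77 and 5.68, and the baseline group 5.46, 5.97, 5.44 and 5.96. Apart from the combination array at the floor, where the deposited intensity was -1, all groups spanned much the same range. Paricalcitol averaged over both enalapril levels differed by -0.33 (SE 0.24, 95% interval -0.84 to 0.17, adjusted p = 0.78), and without that array by -0.12 (SE 0.13). The combination differed from enalapril by -0.50 (SE 0.35, adjusted p = 0.934), and by -0.06 (SE 0.20) without it. The related partners Rxrb and Rxrg, which encode retinoid X receptors beta and gamma, gave averaged paricalcitol differences of 0.17 (SE 0.18) and 0.15 (SE 0.20). Rxrg, the form typical of muscle, had a mean log2 level of 9.66 ± 0.70 with paricalcitol and 9.83 ± 0.13 with vehicle (SD, n = 4 each).

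Cyp27b1 encodes the 1-alpha-hydroxylase that makes active vitamin D, an enzyme known chiefly from the kidney. Its levels were 6.17, 5.68, 5.90 and 5.91 in the paricalcitol group, 5.70, 5.95, 6.11 and 6.34 in the combination group and 6.35, 6.59 and 5.59 in the enalapril group. They were 6.17, 5.62, 6.07 and 6.26 in the vehicle group and 5.95, 6.04, 5.82 and 5.93 at baseline. The gene was dim throughout (intensity 30 to 78) and every group overlapped every other. The averaged paricalcitol difference was -0.13 (SE 0.15, 95% interval -0.45 to 0.18, adjusted p = 0.882). The order of the group means ran enalapril, vehicle, combination, baseline and paricalcitol, with steps of 0.15 or less that no neighbouring groups showed beyond their spread. In vivo the hormone's own degrading enzyme is the textbook response gene, but Cyp24a1 was not analysed here.

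Cdkn1a encodes p21, an inhibitor of cyclin-dependent kinases that halts the cell cycle and is also a target of p53. On its brighter probe set the levels were 10.01, 10.43, 10.45 and 10.59 in the paricalcitol group, against 10.11, 9.92, 9.94 and 10.17 in the vehicle group. With enalapril in both arms the order was the other way, at 9.68, 9.97, 10.47 and 9.85 in the combination group, against 10.35, 10.74 and 10.50 in the enalapril group. At baseline the levels were 10.14, 9.81, 9.94 and 10.10. So 3 of 4 paricalcitol arrays exceeded all vehicle arrays, 3 of 4 combination arrays were below all enalapril arrays, and enalapril lay wholly above vehicle.

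In limma, paricalcitol against vehicle gave 0.33 for Cdkn1a (SE 0.16, 1.26-fold, unadjusted p = 0.0508, adjusted p = 0.522). The combination against enalapril gave -0.53 (SE 0.17, 0.69-fold, unadjusted p = 0.00647, adjusted p = 0.904). The test of the difference between these effects, the paricalcitol by enalapril interaction, was -0.87 (SE 0.23, 95% interval -1.36 to -0.38), with an unadjusted p = 0.00188 and an adjusted p = 0.416. It did not pass over all genes, of which 6.94% had an unadjusted p under 0.05 in this comparison. Enalapril against vehicle gave 0.49 (SE 0.17, adjusted p = 0.791), and 8.53% of all genes had groups apart there. The second probe set ran with the first over 19 arrays (Pearson r 0.84). Fitted with all probe sets kept single, its interaction was -0.80 (SE 0.33, adjusted p = 0.7) and its paricalcitol difference from vehicle 0.12 (SE 0.22, adjusted p = 0.962). In that fit its enalapril difference from vehicle was 0.38 (SE 0.24, adjusted p = 0.957), with overlapping groups. Leaving out any 1 array kept the interaction of the first probe set between -1.03 and -0.76, with adjusted p from 0.246 to 0.814.

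Most markers of several other cell types had the sign of Cdkn1a in the interaction, and none passed. Of the 12 smooth muscle and pericyte markers, 10 were negative (median -0.57, against -0.00 over all genes). So were 8 of 8 T cell markers (median -0.44), 9 of 10 macrophage markers (median -0.39), 10 of 11 endothelial markers (median -0.18) and 5 of 6 adipocyte markers (median -0.22), the adipocyte gene Lep being at the floor on all arrays. Fibroblast markers were negative in 6 of 10 and red cell markers in 2 of 5. Cardiomyocyte markers were negative in 3 of 9 (median 0.01) and skeletal muscle markers in 3 of 6 (median -0.00). The summed intensity of the 12 smooth muscle markers ranged from 16253 to 17590 in paricalcitol hearts, from 14498 to 17859 in the combination, from 15014 to 17800 with enalapril and from 15805 to 16202 with vehicle. No smooth muscle marker was at the floor on all arrays, and the part of any of these cells in the Cdkn1a values was not tested.

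Igfbp3 encodes the main carrier of insulin-like growth factors in blood, and is known to be induced by vitamin D in human prostate cells. Its brighter probe set had 7.14, 7.46, 8.17 and 8.04 in the paricalcitol group and 7.81, 6.24, 7.45 and 7.59 in the combination group. It had 6.79, 7.02 and 7.41 in the enalapril group, 6.77, 6.90, 7.28 and 7.16 in the vehicle group, and 6.67, 7.82, 7.60 and 6.91 at baseline. The combination array at 6.24 was the lowest of the 19, while the other combination arrays exceeded every enalapril array. Paricalcitol differed from vehicle by 0.68 (SE 0.34, 1.6-fold, 95% interval -0.05 to 1.40, adjusted p = 0.561). The combination differed from enalapril by 0.20 (SE 0.37, adjusted p = 1), and by 0.54 (SE 0.31, adjusted p = 1) without replicate 2, the low array. The averaged difference was 0.44 (SE 0.25, 95% interval -0.10 to 0.97, adjusted p = 0.714).

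The second Igfbp3 probe set followed the first less closely than that of Cdkn1a did (Pearson r 0.41 over 19 arrays). It had 7.16, 6.71, 7.18 and 7.66 with paricalcitol and 7.47, 6.84, 7.00 and 7.10 in the combination, against 7.02, 6.64 and 6.62 with enalapril and 6.81, 6.74, 6.05 and 6.64 with vehicle. Baseline arrays had 7.17, 7.06, 7.11 and 6.89 there, all above vehicle. Vehicle and baseline were apart in 7.77% of all genes. Both probe sets therefore had higher means with paricalcitol than in the matching group without it, vehicle or enalapril. Baseline was closer, with a mean of 7.25 on the first probe set, against 7.27 in the combination and 7.70 with paricalcitol. Paricalcitol differed from baseline by 0.45 (SE 0.34) on that probe set. On the second, fitted with all probe sets single, paricalcitol differed from baseline by 0.12 (SE 0.20) and the combination by 0.05 (SE 0.20). Vehicle differed from baseline by -0.49 there (SE 0.20, adjusted p = 0.512). For the second, fitted with all probe sets single, the averaged paricalcitol difference was 0.48 (SE 0.15, 95% interval 0.16 to 0.80, unadjusted p = 0.00561, adjusted p = 0.448). Of all genes, 7.74% had an unadjusted p under 0.05 in that comparison. Neither probe set passed in any comparison.

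**Figure D2:**
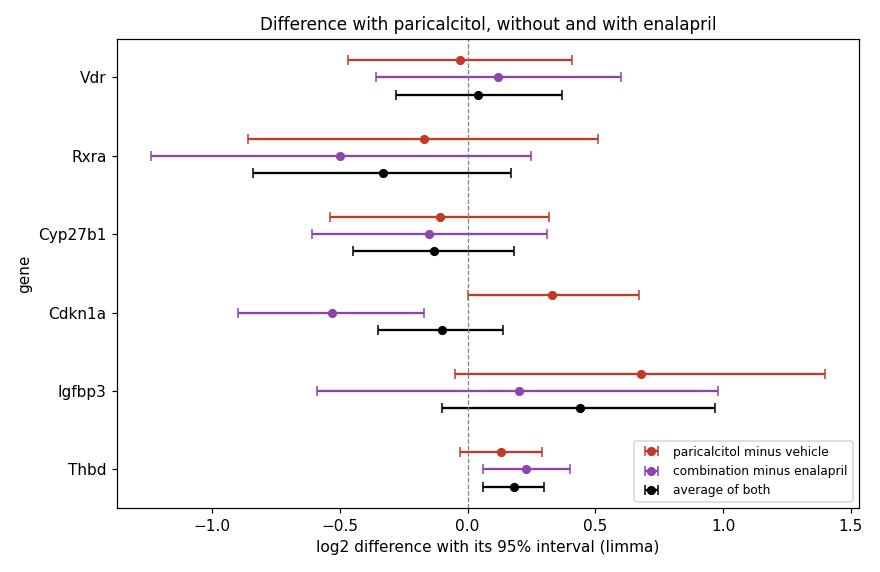
Difference of the log2 level with paricalcitol for each gene, with its 95% interval from limma (x axis, log2), as paricalcitol minus vehicle (red), combination minus enalapril (purple) and their average (black). Cdkn1a has points on opposite sides of 0 (0.33 and -0.53), while Igfbp3 and Thbd have all points above 0 and no adjusted p under 0.05 (paricalcitol minus vehicle for Thbd was -0.000 with arrays centred on their medians).

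Thbd was measured by 3 probe sets. On the brightest the levels were 9.54, 9.56, 9.70 and 9.55 in the paricalcitol group and 9.59, 9.73, 9.71 and 9.47 in the combination group. They were 9.46, 9.27 and 9.45 in the enalapril group, 9.31, 9.45, 9.65 and 9.42 in the vehicle group, and 10.06, 9.97, 9.89 and 9.86 at baseline. Every array of the older rats was below every baseline array, and all combination arrays were above all enalapril arrays, the closest at 9.47 and 9.46. The combination and enalapril groups were apart in 4.94% of all genes. Vehicle was lower than baseline by 0.49 on the log2 scale (difference -0.49, SE 0.07, 95% interval -0.65 to -0.33, 0.714-fold, limma adjusted p = 0.0347). Enalapril differed from baseline by -0.55 (SE 0.08, 95% interval -0.72 to -0.38, 0.684-fold, adjusted p = 0.0435). Thbd was the 1 member called in each comparison, where 0.0844% and 0.0141% of all genes passed, and where 7.77% and 8.89% of all genes had groups apart.

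Paricalcitol hearts differed from baseline in Thbd by -0.36 (SE 0.07, 0.78-fold, adjusted p = 0.145), and combination hearts by -0.32 (SE 0.07, 0.801-fold, adjusted p = 0.0949). Neither passed, although both were apart from baseline on all arrays of the brightest probe set. Those comparisons share the baseline arrays and had 0.0281% and 0.162% of all genes called, and 3.71% and 5.58% with groups apart. Against their own controls the paricalcitol differences were small. Paricalcitol exceeded vehicle by 0.13 (SE 0.07, 95% interval -0.03 to 0.29, adjusted p = 0.628), a difference that was -0.000 with arrays centred on their medians, and the combination exceeded enalapril by 0.23 (SE 0.08, 95% interval 0.06 to 0.40, adjusted p = 0.908). Their average was 0.18 (SE 0.06, 95% interval 0.06 to 0.30, 1.13-fold, unadjusted p = 0.00562, adjusted p = 0.407), and 7.74% of all genes had an unadjusted p under 0.05 in that comparison. The interaction was 0.10 (SE 0.11, adjusted p = 0.904).

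For vehicle and enalapril against baseline, the 2 other Thbd probe sets, fitted with all probe sets single, had the same sign and did not pass. On the middle one by level, vehicle had 8.38, 8.75, 8.77 and 8.50, against 9.20, 9.08, 8.83 and 8.62 at baseline, a difference of -0.34 (SE 0.14, adjusted p = 0.52) with overlapping groups. Its enalapril arrays (8.58, 8.22 and 8.41) were all below baseline, with a difference of -0.53 (SE 0.15, adjusted p = 0.349). On the dimmest, the differences from baseline were -0.25 (SE 0.19, adjusted p = 0.778) for vehicle and -0.31 (SE 0.20, adjusted p = 0.813) for enalapril. On the middle probe set, paricalcitol differed from baseline by -0.19 (SE 0.14) and the combination by -0.17 (SE 0.14). On the dimmest these differences were -0.09 (SE 0.19) and -0.00 (SE 0.19). Both groups overlapped baseline on each of these 2 probe sets. The brightest probe set had a Pearson r of 0.77 with the middle one and 0.48 with the dimmest over 19 arrays. When the probe sets of a gene were averaged, the Thbd difference of vehicle from baseline was -0.36 (adjusted p = 0.314), and that of enalapril -0.46 (adjusted p = 0.385).

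**Figure D3:**
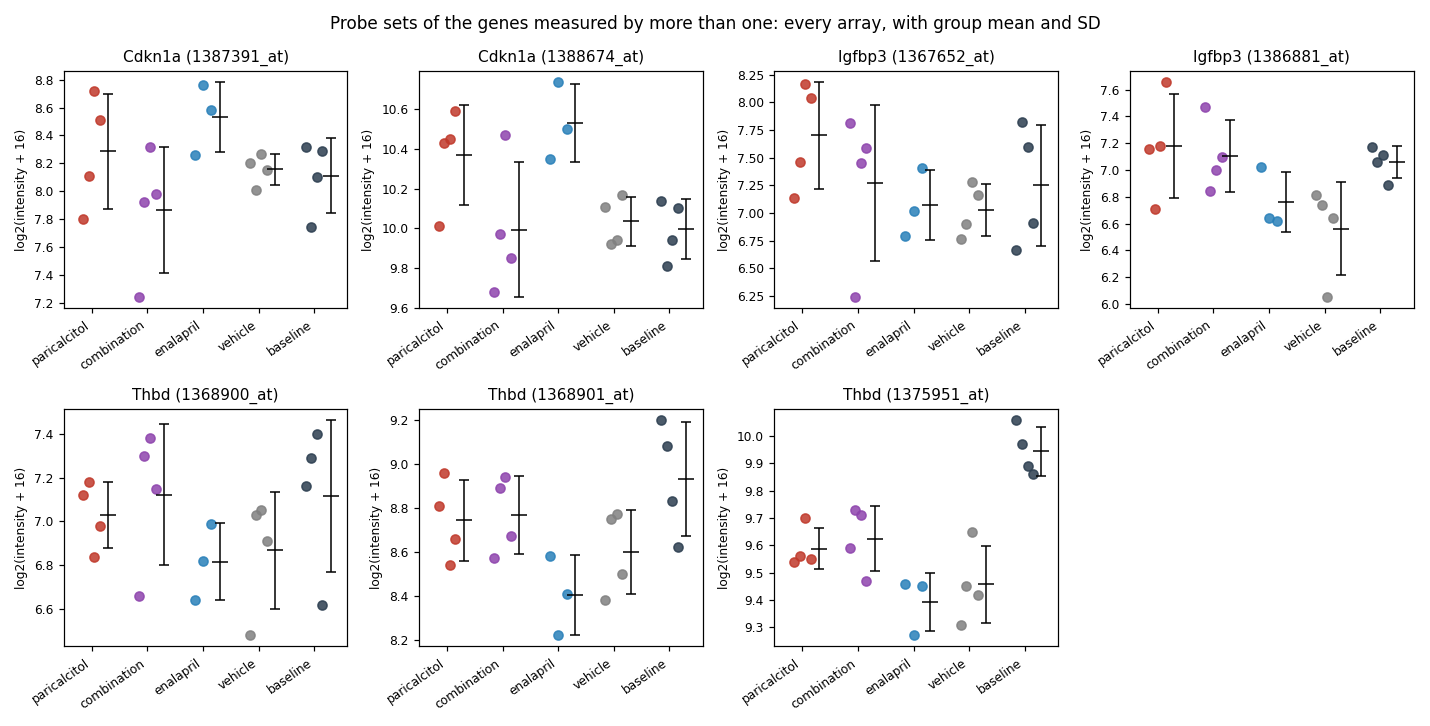
Log2 level on every array for each probe set of Cdkn1a, Igfbp3 and Thbd, with group mean and SD, paricalcitol at the left and baseline at the right of each panel. Vehicle is wholly below baseline on 1 of the 3 Thbd panels, the one with the highest levels, and on the dimmer of the 2 Igfbp3 panels.

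Both Thbd calls were lost on leaving out most single arrays. For vehicle against baseline the adjusted p was 0.0617 to 0.0942 without any 1 of the 4 baseline arrays or of vehicle replicates 1, 2 and 4, and 0.0289 without vehicle replicate 3. For enalapril against baseline it was 0.0535 to 0.213 without any 1 of the 3 enalapril arrays or of baseline replicates 1, 2 and 4, and 0.0456 without baseline replicate 3. The size moved less, from -0.55 to -0.44 and from -0.58 to -0.49 over these omissions.

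Thrombomodulin is made mainly by endothelial cells. Of 11 measured endothelial markers, 8 had lower levels in vehicle hearts than in baseline hearts (median -0.14, against 0.00 over all genes), and 1 passed. That marker, Podxl, encodes podocalyxin. It differed by -0.54 (SE 0.08, adjusted p = 0.0235), with 9.23 ± 0.06 in vehicle hearts against 9.78 ± 0.11 at baseline (SD, n = 4 each). The endothelial score (mean deviation of the 11 markers) was 0.08 ± 0.07 with paricalcitol, -0.04 ± 0.13 in the combination, -0.05 ± 0.02 with enalapril (n = 3), -0.10 ± 0.06 with vehicle and 0.10 ± 0.14 at baseline (SD, n = 4 otherwise). Their summed intensity ranged from 8353 to 9966 with paricalcitol, 7282 to 8998 in the combination, 7850 to 8305 with enalapril, 7588 to 8107 with vehicle and 7947 to 9492 at baseline. No marker was at the floor on all arrays. Most markers of several other cell types also had lower levels in vehicle hearts than in baseline hearts, and 0 of them passed. These were 9 of 10 fibroblast markers (median -0.31) and 9 of 10 macrophage markers (median -0.25). Lower too were 9 of 12 smooth muscle and pericyte markers (median -0.19). So were 5 of 5 red cell and 5 of 6 adipocyte markers (median -0.31 each). T cell markers were lower in 4 of 8 (median -0.01) and cardiomyocyte markers in 4 of 9 (median 0.01). Skeletal muscle markers were lower in 2 of 6 (median 0.02). With the red cell score as a covariate, Thbd in vehicle differed from baseline by -0.51 (SE 0.07, adjusted p = 0.0134). With the endothelial score as a covariate, an alternative chosen after seeing the data, Thbd in vehicle differed from baseline by -0.43 (SE 0.09, adjusted p = 0.209) and in enalapril by -0.50 (SE 0.09, adjusted p = 0.134). Both calls ended under it, as they did on leaving out most single arrays. The part of any cell type in the Thbd values was not tested.

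Next, 6 lists of related genes, with members counted in them, were followed for paricalcitol averaged over both enalapril levels. In that comparison 0 of 14217 genes passed (0.0%). None of the 14 measured receptor partners and co-regulators passed, and 9 were higher (median 0.02). The co-repressor Ncor1 gave 0.06 (SE 0.05), the chromatin remodeller Baz1b -0.12 (SE 0.07) and the mediator subunit Med1 -0.10 (SE 0.06). Of the 7 measured genes for vitamin D metabolism, transport and uptake, 2 were higher and 4 lower (median -0.07), and none passed. Pdia3, which encodes a protein disulfide isomerase also described as a membrane binder of active vitamin D, gave 0.08 (SE 0.06), and paricalcitol against vehicle gave 0.24 (SE 0.08, unadjusted p = 0.0121, adjusted p = 0.354). The hydroxylase Cyp27a1 gave -0.12 (SE 0.13) and Dhcr7, which turns the vitamin D precursor into cholesterol, -0.07 (SE 0.10). The uptake receptor gene Lrp2, named after its values were seen, lay at the floor on all 19 arrays and had no direction.

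Of 28 measured vitamin D target genes known from other tissues, 14 were higher and 12 lower (median 0.00), and none passed. The other 2, Bglap and Kl, lay at the floor on all arrays and are named for that reason. The plasma membrane calcium pump gene Atp2b1 had 9.39 ± 0.11 with paricalcitol, against 9.02 ± 0.35 with vehicle (SD, n = 4 each). Its averaged difference was 0.23 (SE 0.09, unadjusted p = 0.0266, adjusted p = 0.574), and vehicle differed from baseline by -0.49 (SE 0.13, adjusted p = 0.186). Tgfb2, encoding a growth factor of fibrosis and development, gave -0.69 (SE 0.34, adjusted p = 0.663).

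The 17 measured Cdk inhibitor and p53 target genes were 10 higher and 7 lower (median 0.08), with Bbc3 (a cell death gene) at 0.15 (SE 0.07), Cdkn1b at 0.18 (SE 0.09) and Cdkn2d at 0.16 (SE 0.08). Of the 8 insulin-like growth factor binding protein genes, 2 were higher and 4 lower (median -0.00), with 2 at the floor on all arrays (Igfbp1 and Igfals, named after their values were seen). The higher ones were Igfbp3 itself and Igfbp5, at 0.10 (SE 0.26). Igfbp7 gave -0.08 (SE 0.06). Of 16 measured genes of vessel clotting control, 5 were higher and 9 lower (median -0.01), with Proc and Serpinc1, named for that reason, at the floor on all arrays. Procr, the endothelial receptor for protein C that works beside thrombomodulin, had 7.41 ± 0.70 with paricalcitol, against 6.66 ± 0.29 with vehicle (SD, n = 4 each). Its averaged difference was 0.53 (SE 0.21, unadjusted p = 0.0261, adjusted p = 0.571). Of the 11 endothelial markers, 6 were higher in that averaged comparison (median 0.05) and 6 in the combination against enalapril (median 0.02). With paricalcitol against vehicle 10 were higher (median 0.12, 0 passed). Among these, Podxl gave 0.41 (SE 0.08, adjusted p = 0.0704), Emcn 0.61 (SE 0.16) and Tek 0.30 (SE 0.09). There, 10 of 12 smooth muscle and pericyte markers (median 0.24), 9 of 10 macrophage and 8 of 10 fibroblast markers were also higher. Cardiomyocyte markers were higher in 6 of 9 (median 0.01), T cell markers in 5 of 8 and red cell markers in 0 of 5. The part of any of these cells in the Procr values was not tested. Serpine2, encoding the thrombin inhibitor protease nexin, gave -0.43 (SE 0.18, unadjusted p = 0.0319, adjusted p = 0.599). None in these 3 lists passed.

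**Figure D4:**
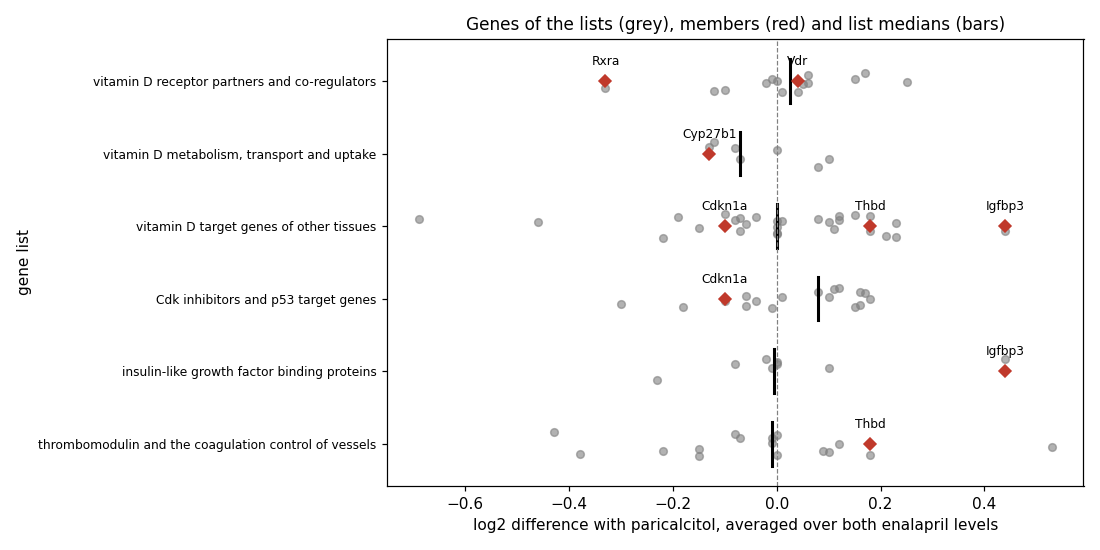
Difference of the log2 level with paricalcitol, averaged over both enalapril levels (x axis), for every measured gene of the 6 lists (grey points), with the list median (bar) and the followed genes named in red. Medians lie between -0.07 and 0.08, and no gene passed.

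By the pattern of log2 levels over all 19 arrays, each member was set beside its 3 most similar genes among those brighter than the median gene. These correlations share arrays, group differences and normalization and are given as descriptions. Thbd was closest to Capn2, a calpain protease gene (Pearson r 0.86, Spearman rho 0.81), Enpep, an aminopeptidase gene of the angiotensin pathway (r 0.85, rho 0.82), and Pxdn, a peroxidase gene of basement membranes (r 0.82, rho 0.64). Measured as deviations from group means, these were 0.74, 0.41 and 0.52. Vdr was closest to Lrrc39 (r 0.84, rho 0.81), Fabp3, the heart fatty acid binding protein gene (r 0.82, rho 0.68), and Cabcoco1 (r 0.80, rho 0.83). Cdkn1a was closest to Nop2 (r 0.73), Abraxas2 (r 0.71) and Ruvbl2 (r 0.71). Igfbp3 was closest to P4hb (r 0.68), Eif4h (r 0.66) and Scfd1 (r 0.65). Cyp27b1 had Acbd3 (r 0.69), Atp6v0b (r 0.65) and Ube2f (r 0.65), and Rxra had Map4k5 (r 0.75), Maco1 (r 0.70) and Dnttip2 (r 0.69). The Rxra likeness to Map4k5 and Dnttip2 was lower by rank (rho 0.40 and 0.39), where the array at the floor weighs less.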

How the data were processed

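Left ventricle RNA was hybridised to a rat expression array, 1 array per sample, and the authors deposited 1 linear intensity per probe set. These deposited intensities include negative values, and the software that made them is not given in the sources used here. Of 31099 probe sets, 20826 were annotated to 1 gene symbol, 436 to several and 9780 to none, and 57 were controls. Intensities were quantile normalized over 19 arrays, floored at 0 and converted to log2(intensity + 16), and each gene was read from its probe set of highest mean. Group means were fitted in limma 3.58.1 (R 4.3.3) with a variance trend. P-values were adjusted by Benjamini-Hochberg over 14217 genes, with a threshold of 0.05. Where probe sets were fitted single, the adjustment ran over the 20826 annotated to 1 gene symbol. The number of arrays limits precision. The fit was tested on simulated arrays with shifts of 1 log2 unit in genes brighter than the median gene. Smaller shifts, and shifts in dimmer genes, were not simulated. Named list genes were those past the threshold and the 3 with the smallest p among brighter genes, plus retinoid receptor and enzyme genes. Members and lists were chosen with earlier results of these data known. Same-numbered arrays deviated together between paricalcitol and combination alone (r 0.31 to 0.56), 1 of 10 pairs of groups. The promoter windows come from RefSeq.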

Additional observations from a re-analysis of the deposited data

Results flagged for a closer look

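In the paricalcitol group, 1 array stood apart from the other 3 for Thbd on its brightest probe set. It had a log2 level of 9.70, and the nearest of the others had 9.56, a gap of 0.914 of the group's range. Of 40 groups of 4 arrays examined in this way over the 10 probe sets, this was the 1 found, where chance gives about 1 in 20. The array lies below every baseline array.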

How the results depend on the processing

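The number of members past the threshold was 0 under each alternative for the 9 comparisons in which it was 0. For vehicle against baseline it was 1, and it was 0 in the deposited values, with only the groups compared, with probe sets averaged and with the endothelial score as a covariate, and 0 to 1 over the omissions of 1 array. For enalapril against baseline it was 1, and it was 0 under those same 4 settings, after centring arrays on their medians, with a pseudocount of 64 and with the replicate block (adjusted p = 0.0744 for Thbd), and 0 to 1 over the omissions. The replicate block changed no other member's call. Thbd kept its sign against baseline in all of these, and the cause of the lost calls was not tested. Over 28 member differences and 633 alternatives and omissions, 597 kept direction and side, 24 lost significance, 0 gained it and 12 turned. Those that turned were all short of the threshold, before and after. For Vdr, paricalcitol against vehicle was 0.067 in the deposited values and -0.186 to 0.150 over the omissions. The averaged difference of Vdr was -0.041 with the endothelial score and -0.058 to 0.133 over the omissions. Over the omissions, the combination differed from enalapril by -0.086 to 0.242 for Vdr and by -0.444 to 0.056 for Cyp27b1. For Rxra, paricalcitol against vehicle was 0.139 with the endothelial score. For Thbd, paricalcitol against vehicle was -0.000 after median centring, and the interaction was -0.036 in the deposited values. Over all genes, median centring raised the calls of paricalcitol against vehicle to 71, compared with 2, and array weights raised those of vehicle against baseline to 160, compared with 12, and of enalapril against baseline to 19, compared with 2. With the endothelial score vehicle against baseline had 4. Vdr, Rxra and Cyp27b1 were dimmer than the median gene, where the pseudocount understates differences.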
